A study of Mus musculus with 32 samples.

Results

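The livers compared here had been growing back for 12 or 18 h after removal of 2/3 of the organ, and they were set against livers of the first 6 h. By the time in the source label, 4 of the 32 arrays of the series were from 12 and 18 h after 2/3 hepatectomy (2 arrays each) and 6 were from 1, 2 and 6 h (2 arrays each). All 10 came from female CD-1 mice, an outbred stock, aged 10 weeks, whose anterior lobes and gallbladder had been taken out under ketamine and xylazine, with buprenorphine given afterwards. Each array held total RNA pooled from at least 3 livers of different mice, hybridised to the Affymetrix MG 430 2.0 chip. All 5 groups carried the same operation, anaesthesia and gallbladder removal, and no sham-operated group was analysed here. The labels give no clock time of surgery or harvest and no feeding state, so that hours after hepatectomy, hours after anaesthesia and time of day cannot be told apart. Unoperated liver was not used in the comparison.

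Liver regrows after partial hepatectomy by division of cells that were quiescent, mainly hepatocytes. In the textbook order, immediate early transcription factors of the AP-1 family come within the first hours, together with NF-kB and STAT3 driven by tumour necrosis factor and interleukin 6 from Kupffer cells, the resident macrophages. The same cytokines switch on the acute phase response, in which hepatocytes secrete serum amyloid A and related proteins. In the mouse, DNA synthesis follows only on the next day, so that 12 and 18 h lie between the first response and replication.

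Values are the deposited array intensities, compared on the scale of log2(intensity + 16), with negative intensities set to 0 first. Folds and log2 differences below are on that scale, run as 12 and 18 h over or minus 1, 2 and 6 h, and understate changes of dim probe sets. The windows are called later (12 and 18 h) and early (1, 2 and 6 h). Means are given ± SD over the 4 later and the 6 early arrays, and log2 differences ± SE. Each test was limma's moderated test with 1 mean per time, adjusted by the Benjamini-Hochberg method over 18193 genes, and a gene is said to have risen or fallen where the adjusted p was under 0.05. With 2 pools per time, p-values measure the spread between such pools, and the number of arrays limits the precision.

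The arrays had median intensities of 73.07 to 75.66. Albumin, the main plasma protein of the hepatocyte, averaged 8813 ± 536 later and 8735 ± 1122 early, and Hnf4a, a transcription factor that keeps hepatocyte identity, averaged 1821 ± 537 later and 1675 ± 294 early. These were the 2 of 13 hepatocyte markers with a positive log2 difference. In 10 it was negative, and the median of the 13 was -0.21. The log2 ratio of 3' to 5' probe sets of Actb, a sign of RNA length, was 0.57 and 1.39 (12 h), 0.58 and 0.64 (18 h), against 1.17 and 1.17 (1 h), 1.44 and 1.72 (2 h), 0.75 and 0.72 (6 h). Between the arrays of a time, the SD of the log2 difference over genes was widest at 12 h, with 0.50 (12 h) and 0.40 (18 h), against 0.37 (1 h), 0.28 (2 h) and 0.33 (6 h). Counts are also given without array 2 of 2 h and of 12 h, each the array of its time with the higher ratio, where this moved a count of at least 2 list members by over 1.5 times.

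Acute phase and innate genes were among the large rises, and the last enzyme of glucose output was among the large falls, so the stretches around the starts of 6 of these genes are shown. They run from 250 bases before to 50 after the start as RefSeq places it on build GRCm38.p6, 5′ to 3′ on the strand of the gene, with matches to searched motifs in capitals. Lcn2 (chr2:32387690-32387989, minus strand), Saa2 (chr7:46751583-46751882, plus strand), Saa1 (chr7:46742931-46743230, minus strand) and Saa3 (chr7:46715627-46715926, minus strand) carry the C/EBP motif TTGCNNAA, and Saa3 also the NF-kB motif GGAAANNCC. Cxcl1 (chr5:90890995-90891294, plus strand) carries the NF-kB motif at 2 places, and G6pc (chr11:101367466-101367765, plus strand) the insulin response motif TGTTTTG.
Lcn2: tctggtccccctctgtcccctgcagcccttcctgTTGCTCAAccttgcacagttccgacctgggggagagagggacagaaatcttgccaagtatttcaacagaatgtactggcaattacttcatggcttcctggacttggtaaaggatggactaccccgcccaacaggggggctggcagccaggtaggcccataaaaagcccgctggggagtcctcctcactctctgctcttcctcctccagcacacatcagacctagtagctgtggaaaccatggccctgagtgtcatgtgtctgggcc
Saa2: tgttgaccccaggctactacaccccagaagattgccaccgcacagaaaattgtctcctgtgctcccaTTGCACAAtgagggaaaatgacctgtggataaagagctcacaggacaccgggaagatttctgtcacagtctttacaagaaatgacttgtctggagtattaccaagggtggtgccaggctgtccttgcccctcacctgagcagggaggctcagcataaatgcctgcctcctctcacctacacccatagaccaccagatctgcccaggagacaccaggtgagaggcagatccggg
Saa1: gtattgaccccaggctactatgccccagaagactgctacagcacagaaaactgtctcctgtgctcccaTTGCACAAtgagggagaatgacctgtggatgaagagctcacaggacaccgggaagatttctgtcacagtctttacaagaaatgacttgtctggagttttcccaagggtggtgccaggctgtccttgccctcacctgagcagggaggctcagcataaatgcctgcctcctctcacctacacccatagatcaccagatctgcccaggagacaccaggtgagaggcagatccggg
Saa3: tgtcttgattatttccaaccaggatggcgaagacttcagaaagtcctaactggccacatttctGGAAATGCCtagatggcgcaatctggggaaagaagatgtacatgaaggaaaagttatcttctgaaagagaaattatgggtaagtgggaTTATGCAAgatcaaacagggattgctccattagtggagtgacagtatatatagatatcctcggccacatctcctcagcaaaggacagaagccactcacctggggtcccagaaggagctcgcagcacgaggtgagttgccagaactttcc
Cxcl1: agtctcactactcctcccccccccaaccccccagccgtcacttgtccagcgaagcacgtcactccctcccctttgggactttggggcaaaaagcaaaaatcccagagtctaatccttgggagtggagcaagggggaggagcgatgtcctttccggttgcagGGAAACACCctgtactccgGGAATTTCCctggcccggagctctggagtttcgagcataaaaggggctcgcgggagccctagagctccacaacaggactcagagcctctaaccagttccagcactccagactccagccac
G6pc: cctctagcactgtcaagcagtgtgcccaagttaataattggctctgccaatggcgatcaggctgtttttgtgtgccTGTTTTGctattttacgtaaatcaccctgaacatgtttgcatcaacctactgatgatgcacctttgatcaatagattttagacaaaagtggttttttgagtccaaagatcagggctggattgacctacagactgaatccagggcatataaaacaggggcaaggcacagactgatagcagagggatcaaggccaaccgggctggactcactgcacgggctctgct

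Each motif was searched on both strands. The C/EBP match lies at -216 to -209 from the start of Lcn2, at -183 to -176 in Saa2 and at -182 to -175 in Saa1, where the letters are the same as in Saa2. In Saa3 it lies at -99 to -92 on the other strand. Of the 8 acute phase genes that rose and have a promoter in the table, 6 hold the C/EBP motif, 3 the NF-kB motif, 2 the STAT motif TTCNNNGAA and 1 the AP-1 motif TGANTCA. Of the 10 such genes of innate and interleukin 6 signalling, 5 hold the NF-kB motif, 3 the STAT motif, 2 the C/EBP motif and 1 the E-box CACGTG. Of the 11 immediate early genes that fell and have a promoter, 3 hold the cyclic AMP response element TGACGTCA and 3 the NF-kB motif. The E-box is held by 2 of these 11, the C/EBP motif by 2, and the AP-1, STAT and insulin response motifs by 1 each. Of the 8 genes of the fasting, gluconeogenesis and glycogen list that fell and have a promoter, 3 hold the insulin response motif and 2 the E-box. Over all 32851 promoters of the table the shares are 10.8% for C/EBP, 5.82% for NF-kB, 8.3% for STAT and 7.81% for AP-1. They are 7.15% for the E-box, 1.79% for the cyclic AMP response element and 6.28% for the insulin response motif. These shares count single promoters. A listed gene was counted where any of its promoters held the motif, so the units differ. No searched motif contains another, but matches of different motifs can share bases. A match is a description of these letters, not of a bound site.

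Of 18193 genes, 1416 rose (7.78%) and 1553 fell (8.54%) at 12 and 18 h against 1, 2 and 6 h. At least 2-fold changes made up 263 of the rises and 444 of the falls, and at least 8-fold changes 14 and 14. On 1048 genes all 4 arrays of 12 and 18 h lay above all 6 arrays of 1, 2 and 6 h (5.76%), and on 1067 they lay below (5.86%). The median log2 difference over all genes was 0.02. Of the genes that fell, the highest early mean was that of 1 h for 1087, of 2 h for 318 and of 6 h for 148. Of those that rose, the later mean was the higher at 18 h for 858 and at 12 h for 558. With the second arrays of 2 and 12 h left out, 1032 rose and 713 fell, so that rises outnumbered falls. Leaving out array 1 of 2 h gave 818 rises and 965 falls, array 2 of 2 h 888 and 953, and array 2 of 6 h 847 and 988. Rises numbered 940 without array 1 of 18 h, and falls 1025 without array 2 of 18 h.

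**Figure D1:**
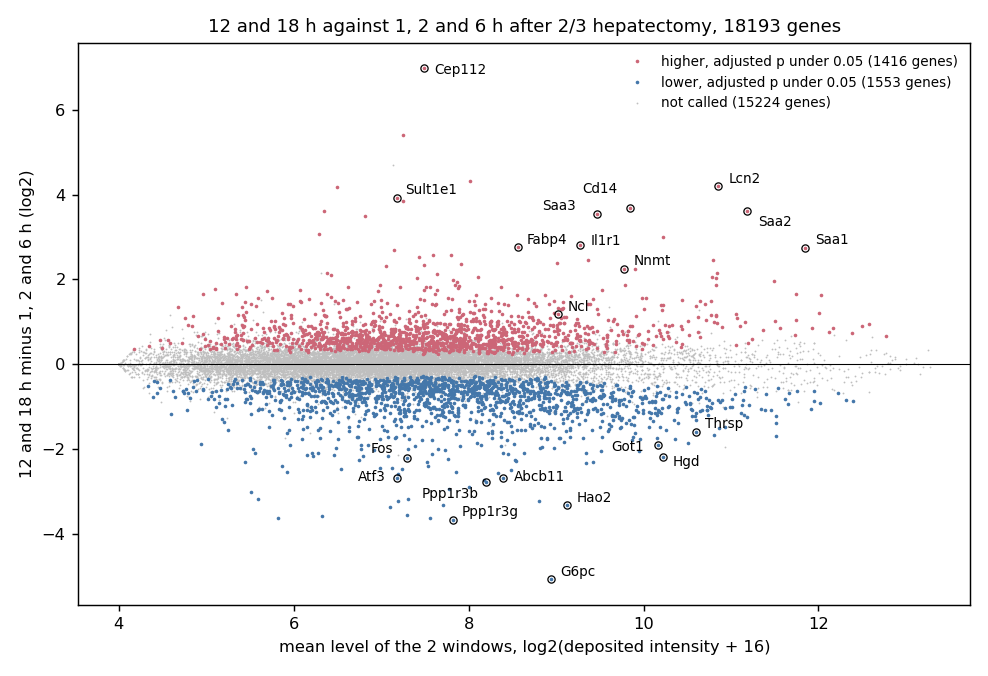
Each point is 1 of 18193 genes, with the mean log2(deposited intensity + 16) of the 2 windows across and the log2 difference of 12 and 18 h minus 1, 2 and 6 h upwards. Red points are the 1416 genes that rose, blue points the 1553 that fell and grey points the others, and Lcn2 (4.2) and G6pc (-5.07) are among the named genes farthest from 0.

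Acute phase proteins secreted by hepatocytes rose at 12 and 18 h: 10 of 29 measured list members rose and 0 fell by limma's test, with 14 higher and 0 lower at an unadjusted p under 0.05 and a median log2 difference of 0.50. Lcn2, lipocalin 2, which binds the iron carriers of bacteria, had 7967 and 6203 (12 h), 9037 and 8797 (18 h), against 247 and 109 (1 h), 144 and 111 (2 h), 5093 and 1877 (6 h). All 4 later arrays lay above all 6 early ones, and within the early window the 6 h arrays were far above those of 1 and 2 h. The difference was 4.2 ± 0.32 (18.4-fold, adjusted p = 0.000783), whereas against 6 h alone it was 1.35 ± 0.43 with an adjusted p of 0.127.

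The serum amyloid A genes, whose proteins ride on high density lipoprotein in the acute phase, moved the same way. Saa2 had 8464 and 6240.2 (12 h), 9202 and 9019 (18 h), against 346 and 213 (1 h), 209 and 299 (2 h), 5368 and 2746 (6 h), and Saa1 had 9261 and 8602 (12 h), 10129 and 9956 (18 h), against 1013 and 605 (1 h), 562 and 571 (2 h), 7251 and 5263 (6 h). For both genes the groups did not overlap and the 6 h arrays stood between the other early arrays and the later ones. The differences were 3.61 ± 0.24 for Saa2 and 2.74 ± 0.18 for Saa1 (adjusted p = 0.000625 for each), with 1.08 ± 0.32 and 0.61 ± 0.24 against 6 h alone (adjusted p = 0.109 and 0.206). The probe sets used for Saa1 and Saa2 end in _s_at and _x_at, which the maker's naming gives to sets that can match several transcripts, so that the share of each gene in them is uncertain. Saa3, expressed in macrophages as well as liver in the mouse, had 2734 and 383 (12 h), 6122 and 5016 (18 h), against 88.1 and 124.8 (1 h), 132 and 147 (2 h), 864 and 234 (6 h). Array 2 of 12 h was the lowest of the later arrays and lay below 1 array of 6 h, so the groups overlapped. The difference was 3.55 ± 0.57 (adjusted p = 0.00638).

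Steap4, a metal reductase induced by inflammatory cytokines, averaged 4179 ± 656 later and 1043 ± 1079 early, 5.48-fold higher (adjusted p = 0.00122). Haptoglobin (Hp) averaged 7359 ± 1309.5 later and 5769 ± 505 early and did not pass the test (log2 difference 0.34 ± 0.18, adjusted p = 0.266). Orm1, orosomucoid, averaged 8683 ± 1809.7 later and 4465 ± 868 early and rose (adjusted p = 0.0191), a call lost without array 1 of 1 h, either array of 2 h or array 2 of 6 h (adjusted p = 0.0544 to 0.0636). Against 6 h alone, 0 of the 29 list members passed limma's test in either direction, with 13 higher and 0 lower at an unadjusted p under 0.05. Over all genes, 438 were higher (2.41%) and 361 lower (1.98%) in that comparison, which shares its later arrays with the first. These counts rest on both 6 h arrays, with 6 higher and 15 lower without array 1 of 6 h, and 2 higher and 4 lower without array 2. Without either array of 2 h 102 were higher and 111 lower. Without an array of 1 h 200 or 201 were higher and 190 or 192 lower, without those of 18 h 260 or 282 higher, and without array 2 of 12 h 770 higher.

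Receptors and signal carriers of innate immunity and interleukin 6 rose as well, 14 of 37 measured, with 2 lower and a median of 0.37. Cd14, the co-receptor for bacterial lipopolysaccharide, had 3569 and 2279.7 (12 h), 3348 and 4234 (18 h), against 86.0 and 98.6 (1 h), 134 and 191 (2 h), 1156 and 629 (6 h). All later arrays were above all early ones, with a difference of 3.69 ± 0.22 (12.9-fold, adjusted p = 0.000565), and of 1.92 ± 0.29 against 6 h alone (adjusted p = 0.0204). Il1r1, the signalling receptor of interleukin 1, had 2463 and 1731 (12 h), 1061 and 1543 (18 h), against 111 and 102 (1 h), 131 and 137 (2 h), 923 and 479 (6 h). Its 12 h arrays were higher than those of 18 h by means of 2097 and 1302, although this later difference of -0.68 ± 0.32 did not pass the test (adjusted p = 0.411). Against the early window it rose by 2.82 ± 0.21 (adjusted p = 0.000727), and another probe set of Il1r1 gave only 0.11.

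Cxcl1, a chemokine that draws neutrophils, averaged 3747 ± 822 later and 1253 ± 1193 early (log2 difference 2.03 ± 0.19, adjusted p = 0.00115). It had 3211 and 2275 at 6 h, so that later arrays overlapped them, and against 6 h the difference was 0.44 ± 0.25 (adjusted p = 0.373). Stat3, a transcription factor driven by interleukin 6, averaged 1151 ± 232 later and 598 ± 155 early. It rose by 0.94 ± 0.14 (adjusted p = 0.00534), with 1 of its 4 probe sets at -0.15. Socs3, its feedback inhibitor, rose by 0.89 ± 0.17 (adjusted p = 0.0135), with 2035 and 1527 (12 h), 719 and 1039.7 (18 h), against 542 and 695 (1 h), 337 and 289.7 (2 h), 1780.1 and 1225 (6 h). Socs3 was thus highest at 6 and 12 h, and against 6 h alone its difference was -0.25 ± 0.23 (adjusted p = 0.598). The Socs3 call was lost without the second arrays of 2 and 12 h (adjusted p = 0.0536). Nfkbiz, a nuclear regulator of NF-kB target genes, rose by 0.93 ± 0.08 against the early window and differed by 0.00 from 6 h. Its 3 probe sets ranged from 0.17 to 0.93 against the early window.

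**Figure D2:**
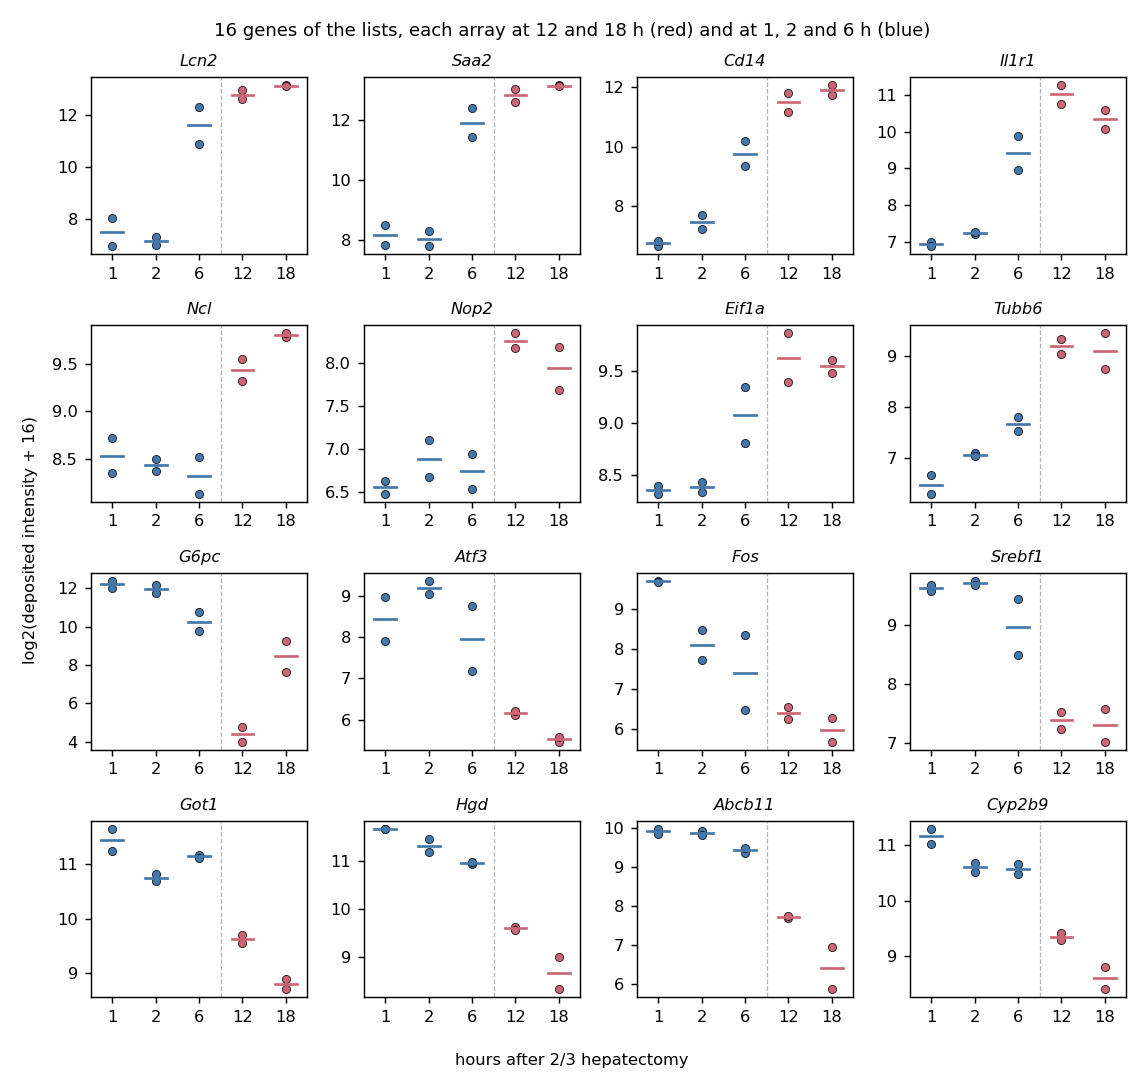
Log2(deposited intensity + 16) of 16 genes against hours after 2/3 hepatectomy, each point 1 array (2 per time), each bar the mean of a time, with 12 and 18 h in red, 1, 2 and 6 h in blue and a dashed line between the windows. Lcn2, Saa2, Cd14 and Il1r1 stood at 6 h between the first 2 h and the later window, whereas G6pc, Got1 and Abcb11 were higher on all 6 early arrays than on any later one.

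In ribosome assembly in the nucleolus, 32 of 67 measured genes rose and 0 fell by limma's test (44 and 1 at an unadjusted p under 0.05), with a median of 0.44. Ncl, nucleolin, which packs and processes ribosomal RNA precursors, had 733 and 621 (12 h), 863 and 889 (18 h), against 311 and 405 (1 h), 316 and 347 (2 h), 351 and 266 (6 h). The groups did not overlap, and the difference was 1.18 ± 0.12 (2.27-fold, adjusted p = 0.00133). Its 5 probe sets gave 0.06 to 1.33, all in the same direction. Nop2, a methyltransferase of ribosomal RNA, averaged 261 ± 50.4 later and 91.5 ± 18.8 early, Ftsj3, another, 207 ± 36.1 later and 67.5 ± 22.9 early, and Npm1, nucleophosmin, 1276 ± 169.9 later and 667 ± 54.7 early. The differences were 1.36 ± 0.15, 1.44 ± 0.16 and 0.91 ± 0.11, and on all 3 genes every later array lay above every early one. Against 6 h alone, 9 members were higher and 0 lower, with 26 and 0 at an unadjusted p under 0.05.

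Of 40 translation factors measured, 13 rose and 0 fell (24 and 0 at an unadjusted p under 0.05), with a median of 0.37, and 20 rose after quantile normalization. Eif1a, an initiation factor that helps find the start codon, had 912 and 654 (12 h), 762 and 697 (18 h), against 305 and 321 (1 h), 330.0 and 308 (2 h), 635 and 432 (6 h) and rose by 0.97 ± 0.14 (adjusted p = 0.00413), with all later arrays above all early ones. Eif5, which triggers start codon recognition, averaged 1771 ± 246 later and 937 ± 193 early (log2 difference 0.92 ± 0.12, adjusted p = 0.00361), although 1 of its 5 probe sets went the other way, by -0.04. Eef1e1, a scaffold of the tRNA synthetase complex, rose by 0.70 ± 0.12 and Eif2b3, part of the exchange factor for eIF2, by 0.69 ± 0.10.

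Proteasome subunits had a median of 0.32, and 7 of 39 rose and 0 fell (14 and 0 at an unadjusted p under 0.05), or 16 after quantile normalization. The median member stood at 0.01 (1 h), -0.11 (2 h), -0.24 (6 h), -0.12 (12 h) and 0.47 (18 h) from its own mean over the times, so that 12 h was level with the early times and 18 h above them. Between 18 and 12 h, 0 of 39 members passed limma's test, with 18 higher and 0 lower at an unadjusted p under 0.05. Over all genes, 2 were higher (0.011%) and 7 lower (0.0385%) in that comparison, with 1418 and 929 at an unadjusted p under 0.05. Psmc4, an ATPase of the regulatory particle, averaged 848 ± 232 later and 503 ± 68.0 early (log2 difference 0.71 ± 0.12) and Psmd12, a lid subunit, 924 ± 128 later and 527 ± 51.3 early (0.79 ± 0.11), with no overlap between the groups for either. The median proteasome member on array 1 and array 2 of 12 h stood 0.26 above and 0.46 below its own mean over the times. Translation factors showed a like gap between these arrays, at 0.34 and -0.30, and so did chaperones of the endoplasmic reticulum, at 0.44 and -0.36. Array 2 of 12 h is the array of 12 h with the high Actb ratio, and the part of RNA length in these levels was not tested.

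Chaperones of the endoplasmic reticulum and genes of the unfolded protein response rose in 9 of 32 cases and fell in 1, with a median of 0.36. Without the second arrays of 2 and 12 h the counts were 14 and 0. Dnajb9, a co-chaperone of the endoplasmic reticulum, had 2340.0 and 2093 (12 h), 1521 and 1478 (18 h), against 458 and 770.3 (1 h), 749 and 852 (2 h), 1091 and 688 (6 h). All later arrays lay above all early ones, and the difference was 1.27 ± 0.18 (adjusted p = 0.00444). Asns, asparagine synthetase, a target of the amino acid response, averaged 169 ± 26.2 later and 91.3 ± 21.1 early (0.80 ± 0.11, adjusted p = 0.00376). Hspa5, the main chaperone of this compartment, averaged 5043 ± 1316 later and 2488 ± 962 early with overlap between the groups, a difference of 1.04 ± 0.24 and an adjusted p of 0.0242. That call was lost, at adjusted p of 0.0582 to 0.067, without array 1 of 1 h or of 2 h or without any 1 array of 6 or 18 h.

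In tRNA charging and amino acid supply, 6 of 31 rose and 4 fell, with a median of 0.19. Hars and Iars, the synthetases that charge tRNA with histidine and isoleucine, rose by 0.82 ± 0.13 and 0.48 ± 0.09, and Slc3a2, the shared heavy chain of several amino acid transporters, by 0.53 ± 0.07. Slc38a2, a transporter of small neutral amino acids, fell by 1.06 on the log2 scale, with means of 1069 ± 382 later and 2166 ± 391 early. Its 3 probe sets ranged from -1.13 to -0.23. Without the second arrays of 2 and 12 h this list had 10 rises and 1 fall. In polyamine, one-carbon and nucleotide synthesis 5 of 27 rose and 4 fell, with a median of 0.07. Srm, spermidine synthase, averaged 714 ± 244 later and 234 ± 71.5 early (1.53 ± 0.23, adjusted p = 0.005), and Ctps, which makes cytidine triphosphate, averaged 233 ± 64.2 later and 53.7 ± 25.03 early (1.86 ± 0.19, adjusted p = 0.00151). Mthfd1 and Shmt1, enzymes of the cytosolic folate cycle, fell, with differences of -1.72 ± 0.14 and -1.51 ± 0.21.

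Genes of the cytoskeleton, adhesion and matrix rose in 14 of 38 cases and fell in 1, with a median of 0.28, and without the second arrays of 2 and 12 h 8 rose and 1 fell. Tubb6, a beta tubulin, had 622 and 509.7 (12 h), 412 and 677 (18 h), against 85.9 and 63.5 (1 h), 122 and 116 (2 h), 169 and 207 (6 h). Every later array was above every early one, with a difference of 2.06 ± 0.16 (4.16-fold, adjusted p = 0.000805), while its other probe set gave only 0.3. S100a10, a partner of annexin A2, averaged 2741 ± 641 later and 939.9 ± 73.4 early (1.5 ± 0.16), and its 3 probe sets ranged from 0.25 to 1.5. Krt18, a keratin of hepatocytes and bile duct cells, averaged 3217 ± 868 later and 1462 ± 191 early (1.09 ± 0.17). Timp1, an inhibitor of matrix metalloproteases, averaged 108 ± 39.9 later and 52.5 ± 9.56 early (0.81 ± 0.11). Among cytosolic and mitochondrial chaperones 4 of 29 rose (13.8%) and 2 fell (6.9%), with a median of 0.20, beside 7.78% and 8.54% of all genes. Cct2, of the ring that folds actin and tubulin, rose by 0.74 ± 0.14 (adjusted p = 0.0127, or 0.072 without those arrays), and Fkbp4, a co-chaperone of steroid receptors, fell by 1.65 on the log2 scale, while 1 of its other probe sets gave 0.69.

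**Figure D3:**
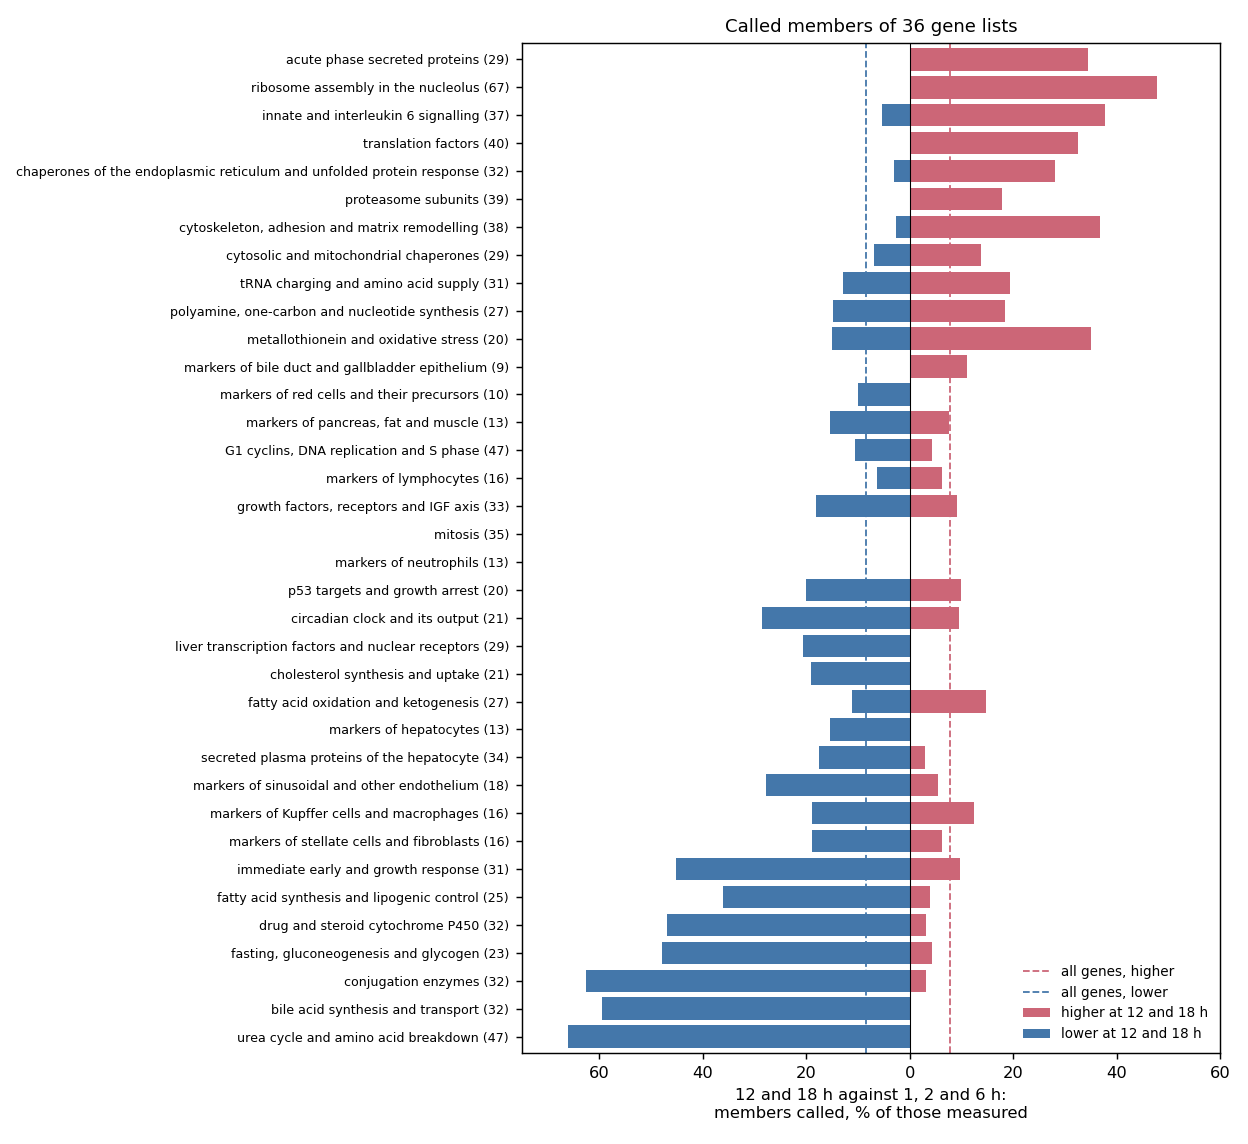
Share of the measured members of each of 36 gene lists that rose (red, to the right) or fell (blue, to the left) at 12 and 18 h against 1, 2 and 6 h, in %, with the number measured in brackets and the lists ordered by median log2 difference. Dashed lines mark the shares over all genes, 7.78% higher and 8.54% lower; urea cycle and amino acid breakdown had 66.0% lower and ribosome assembly 47.8% higher.

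In the list of fasting, gluconeogenesis and glycogen, 11 of 23 measured genes fell and 1 rose, with a median of -0.71. G6pc, the catalytic subunit of glucose 6-phosphatase, which releases free glucose from the liver, had 10.8 and -54.4 (12 h), 604 and 179.9 (18 h), against 4113 and 5364 (1 h), 3484 and 4606 (2 h), 849 and 1735 (6 h). All early arrays were above all later ones, the 6 h arrays were the lowest of the early window, and the 12 h arrays were lower than those of 18 h. Both 12 h arrays were near or below 0, so the size of the difference depends on the added constant, with -5.81 for a constant of 4 and -4.13 for 64. With 16 it was -5.07 ± 0.37 (adjusted p = 0.000727), and -3.86 ± 0.49 against 6 h alone (adjusted p = 0.0133). Between 18 and 12 h the difference did not pass the test (adjusted p = 0.144).

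Pck1, which makes phosphoenolpyruvate for the same pathway, had 1126 and 151 (12 h), 3899 and 1316 (18 h), against 4224 and 5036 (1 h), 3761 and 4738 (2 h), 2569 and 3259 (6 h). The first array of 18 h reached early levels and array 2 of 12 h was far below the rest, so the groups overlapped, and the difference of -1.95 ± 0.55 did not pass the test (adjusted p = 0.0502). The call depended on the setting. It passed with a constant of 64 (adjusted p = 0.039), quantile normalization (0.0249), the mean of its probe sets (0.0145) or array weights (0.0366). The difference was -2.64 without array 1 of 12 h and -2.34 without array 1 of 18 h. Ppp1r3g and Ppp1r3b, which bring protein phosphatase 1 to glycogen, fell, with differences of -3.67 ± 0.29 and -2.78 ± 0.25. Ppp1r3g averaged 49.2 ± 18.7 later and 915 ± 474 early and Ppp1r3b 123 ± 114 later and 803 ± 316 early, with no overlap. Pygl, liver glycogen phosphorylase, averaged 691 ± 130.4 later and 1781 ± 421 early (-1.33 ± 0.11, adjusted p = 0.000805). Ppargc1a, a coactivator of gluconeogenic genes, averaged 55.6 ± 5.47 later and 103 ± 35.2 early (-0.68 ± 0.09). Klf15, a transcription factor of the fasting response that is not in the list, averaged 75.9 ± 60.3 later and 632 ± 221 early (-2.95 ± 0.33). Pdk4, which closes pyruvate dehydrogenase, averaged 1136 ± 531 later and 793 ± 675 early and did not pass the test (adjusted p = 0.204). Against 6 h alone, 7 list members were lower and 0 higher, with 11 and 1 at an unadjusted p under 0.05.

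Of 31 immediate early and growth response genes, 14 fell and 3 rose, with a median of -0.53, and without the second arrays of 2 and 12 h 8 fell and 3 rose. Atf3, a stress-induced repressor of the ATF family, had 53.1 and 58.4 (12 h), 28.2 and 31.6 (18 h), against 222 and 484 (1 h), 641 and 508 (2 h), 128 and 412 (6 h). It was highest at 2 h and every early array lay above every later one, with a difference of -2.68 ± 0.33 (adjusted p = 0.00266). Fos, a subunit of AP-1, had 59.6 and 76.7 (12 h), 35.1 and 61.1 (18 h), against 819.7 and 804 (1 h), 341 and 195 (2 h), 71.7 and 313 (6 h). It was highest at 1 h, and array 1 of 6 h had already reached the later range, with a difference of -2.22 ± 0.37 (adjusted p = 0.0072). Jun and Myc fell by 1.36 and 1.29 on the log2 scale (adjusted p = 0.00728 and 0.0119). Array 1 of 6 h was within the later range for Myc and just above it for Jun, and both calls were lost without the second arrays of 2 and 12 h (adjusted p = 0.0597 for Jun and 0.0802 for Myc). Btg2, an antiproliferative gene induced early, averaged 158 ± 49.5 later and 584 ± 205 early (-1.75 ± 0.20). Egr1 averaged 588 ± 342 later and 753 ± 228 early and did not pass the test (-0.50 ± 0.25, adjusted p = 0.22), with 813 and 934 at 12 h and 210.0 and 393 at 18 h. Ier5 was an exception in the list and rose by 0.82 ± 0.08, although 1 of its 3 probe sets gave -0.12.

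Of the enzymes of amino acid breakdown and the urea cycle, 31 of 47 measured fell, with 0 higher by limma's test (1 at an unadjusted p under 0.05) and a median of -0.82. Got1, cytosolic aspartate aminotransferase, had 817 and 738 (12 h), 457 and 399 (18 h), against 2423 and 3218 (1 h), 1640.0 and 1785 (2 h), 2305 and 2215 (6 h). All early arrays were above all later ones, and the difference was -1.91 ± 0.11 (adjusted p = 0.000565) and -1.94 ± 0.15 against 6 h alone (adjusted p = 0.00421). Hgd, homogentisate dioxygenase of tyrosine breakdown, had 774 and 744 (12 h), 499 and 305 (18 h), against 3251 and 3240.1 (1 h), 2309 and 2784 (2 h), 1951 and 2002 (6 h), again with no overlap (-2.18 ± 0.15, adjusted p = 0.000643). The other probe set of Hgd gave only -0.42. Amdhd1, of histidine breakdown, averaged 89.1 ± 46.5 later and 553 ± 100.3 early (-2.55 ± 0.17). Prodh, proline dehydrogenase, averaged 244 ± 93.5 later and 595 ± 104 early (-1.29 ± 0.09). Dropping the second arrays of 2 and 12 h left 17 members lower and 1 higher, with a median of -0.67. Tat, tyrosine aminotransferase, lay below the early range on all 4 later arrays but did not pass the test (-0.89 ± 0.29, adjusted p = 0.0768), and it passed without array 1 of 12 h (adjusted p = 0.00487).

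Drug-metabolising and steroid cytochromes P450 fell in 15 of 32 cases and rose in 1, with a median of -0.70. Cyp2b9, a mouse steroid hydroxylase expressed in females, had 609 and 667 (12 h), 432 and 324 (18 h), against 2058 and 2484 (1 h), 1438 and 1623 (2 h), 1587 and 1403 (6 h). No later array reached the early range, and the difference was -1.79 ± 0.12 (adjusted p = 0.000625). Cyp26a1, which breaks down retinoic acid, averaged 138 ± 64.3 later and 513 ± 97.5 early (-1.86 ± 0.24) and Cyp3a25, of the main drug-metabolising family, 1236 ± 493 later and 3306 ± 674 early (-1.48 ± 0.14). Cyp2e1, the ethanol-inducible form, averaged 7011 ± 927 later and 7556 ± 929 early and did not pass the test (-0.11 ± 0.19, adjusted p = 0.754). Conjugation enzymes fell in 20 of 32 cases and rose in 1, with a median of -0.76. Gstm4 and Gsta4, glutathione transferases, averaged 155 ± 32.8 later and 420.2 ± 53.8 early and 301 ± 45.7 later and 644 ± 95.9 early, with differences of -1.36 ± 0.12 and -1.06 ± 0.09. Nnmt, which methylates nicotinamide, was the exception and averaged 2171 ± 1225 later and 533 ± 501 early (2.25 ± 0.31, adjusted p = 0.00386), with 1423 and 837 at 6 h. Without the second arrays of 2 and 12 h, 8 P450 genes and 10 conjugation enzymes were lower and 1 of each list was higher.

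Bile acid synthesis and transport fell in 19 of 32 cases and rose in 0 by limma's test (22 and 1 at an unadjusted p under 0.05), with a median of -0.81. The counts were 14 lower and 0 higher without the second arrays of 2 and 12 h. Abcb11, the bile salt export pump, had 191 and 196 (12 h), 107 and 41.8 (18 h), against 994 and 899.5 (1 h), 958 and 889.8 (2 h), 636 and 705 (6 h). All early arrays lay above all later ones, and the difference was -2.68 ± 0.20 (adjusted p = 0.000727). Cyp7a1, the rate-limiting enzyme of bile acid synthesis, had 65.5 and 66.8 (12 h), 71.1 and 65.3 (18 h), against 495 and 1116 (1 h), 332 and 349 (2 h), 128 and 427 (6 h). The later arrays lay within a narrow range below every early array, and the difference was -2.30 ± 0.34 (adjusted p = 0.0048). Cyp8b1, which sets the share of cholic acid, averaged 289 ± 104.6 later and 997 ± 344 early (-1.74 ± 0.18), Akr1d1, which reduces the sterol ring, 413 ± 294 later and 1515 ± 393 early (-2.04 ± 0.19) and Abcg8, of the sterol exporter, 146 ± 16.9 later and 329 ± 40.3 early (-1.09 ± 0.10). The gallbladder had been removed in the mice of all 10 pools.

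Fatty acid synthesis and its control fell in 9 of 25 cases and rose in 1, with a median of -0.65, and without the second arrays of 2 and 12 h 5 were lower and 0 higher. Srebf1, the transcription factor of lipogenesis, had 169.8 and 135.4 (12 h), 175 and 114.7 (18 h), against 745 and 799.6 (1 h), 846 and 804 (2 h), 343 and 676 (6 h). The early arrays were all above the later ones, with a difference of -2.09 ± 0.20 (adjusted p = 0.00122). Mlxipl, the carbohydrate response factor, averaged 156 ± 31.6 later and 553 ± 220.2 early (-1.63 ± 0.18). Thrsp, a nuclear protein of lipogenic tissues, averaged 936 ± 352 later and 2862 ± 1177 early (-1.59 ± 0.18) and was highest, with 3879 and 4694 at 6 h, while 1 of its 3 probe sets reached 0.12. Pnpla3, a lipid droplet lipase, fell by 1.23 on the log2 scale. Fasn, fatty acid synthase itself, averaged 659.8 ± 283 later and 876 ± 371 early and did not pass the test (adjusted p = 0.287), while without array 1 of 12 h it fell by 0.69 on the log2 scale (adjusted p = 0.0443).

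Of the genes of cholesterol synthesis and uptake, 4 of 21 fell and 0 rose (5 and 1 at an unadjusted p under 0.05), with a median of -0.16, and none was lower or higher without the second arrays of 2 and 12 h. Its median member stood 0.71 below its own mean over the times at 12 h and 0.44 above it at 18 h. By array this was -0.71 and -0.99 at 12 h, and 0.84 and 0.07 at 18 h, so the 18 h arrays differed widely. Between 18 and 12 h, 0 of 21 members passed limma's test, with 14 higher and 0 lower at an unadjusted p under 0.05. Insig1, which holds back the sterol sensor, had 1376 and 721 at 18 h and 658 and 550.2 at 12 h. Stard4, a sterol carrier, had 417 and 259 at 18 h and 195 and 195 at 12 h. In fatty acid oxidation and ketogenesis 4 of 27 rose (14.8%) and 3 fell (11.1%), with a median of -0.17, beside 7.78% and 8.54% of all genes. Plin2, which coats lipid droplets, averaged 6276 ± 793 later and 2731 ± 531 early (1.21 ± 0.19, adjusted p = 0.00616), and Hadh, a mitochondrial enzyme of beta oxidation, averaged 2014 ± 698 later and 4558 ± 1131 early (-1.22 ± 0.25, adjusted p = 0.0166). The Hadh call was lost without array 2 of 2 h (adjusted p = 0.0503).

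Secreted plasma proteins outside the acute phase had a median of -0.23, with 6 of 34 lower and 1 higher. F7, coagulation factor VII, averaged 313 ± 38.7 later and 703 ± 157 early (-1.11 ± 0.12), Serpind1, heparin cofactor II, 634 ± 202 later and 2129 ± 549 early (-1.75 ± 0.21) and Serpina6, the carrier of corticosteroids, 978 ± 144 later and 2499 ± 764 early (-1.31 ± 0.17). Apoa4, an apolipoprotein of triglyceride-rich particles, was the member that rose, with 5745 ± 1186 later and 1487 ± 427 early (1.96 ± 0.22, adjusted p = 0.00194). Liver transcription factors and nuclear receptors fell in 6 of 29 cases and rose in 0 (10 and 2 at an unadjusted p under 0.05), with a median of -0.13. Cebpa, a hepatocyte factor linked to quiescence, averaged 406 ± 132 later and 933 ± 275 early (-1.16 ± 0.22, adjusted p = 0.0117, or 0.0869 without the second arrays of 2 and 12 h), Nr3c1, the glucocorticoid receptor, 162 ± 40.4 later and 334 ± 82.1 early (-0.96 ± 0.15) and Ghr, the growth hormone receptor, 1051 ± 238 later and 2337 ± 598 early (-1.14 ± 0.17). Probe sets of Nr3c1 ranged from -0.96 to 0.13, with 2 of 6 in the other direction.

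**Figure D4:**
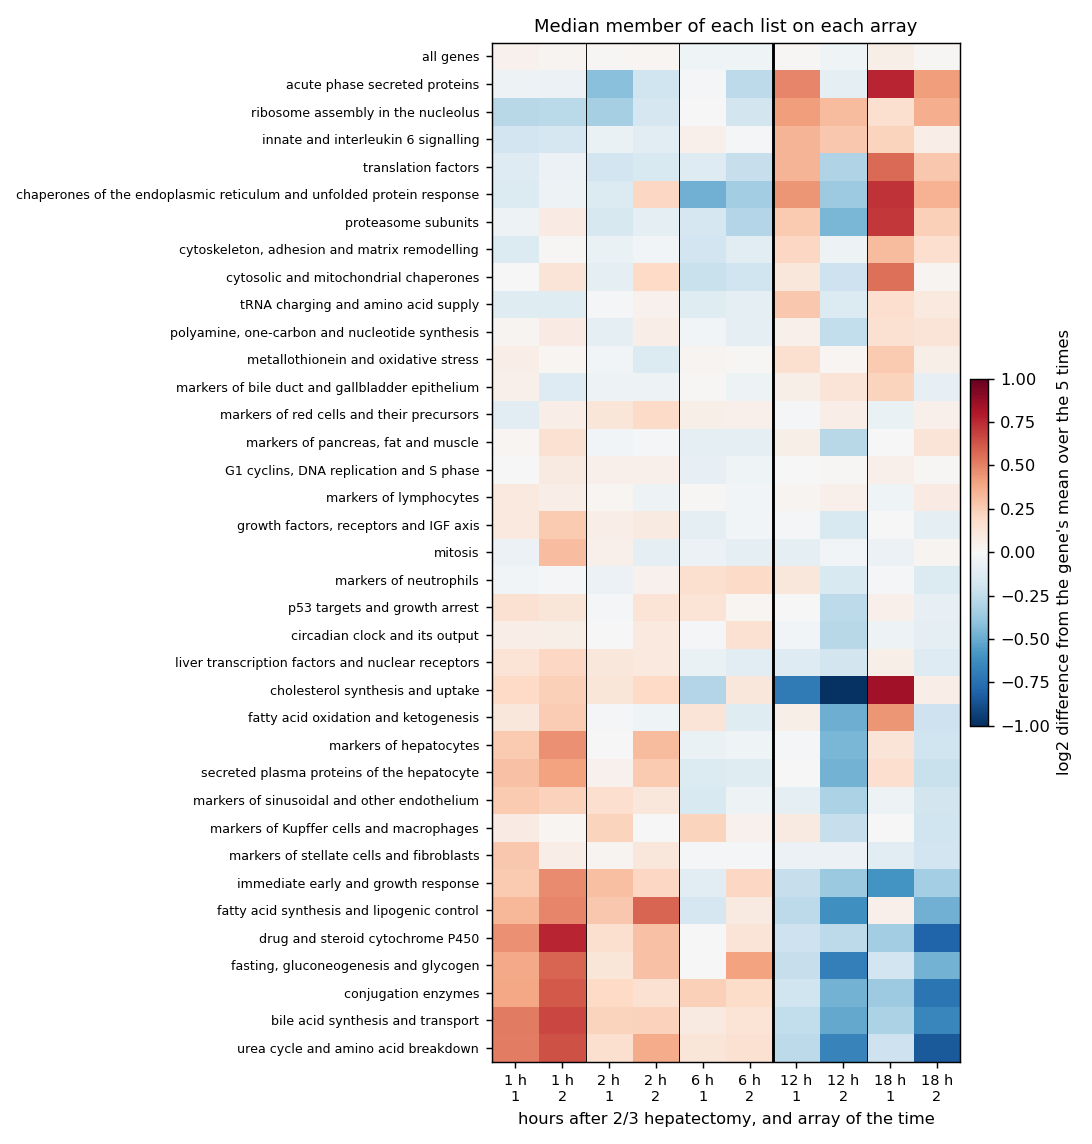
Median over the members of each list, and over all genes, of the log2 level on each array minus the gene's own mean over the 5 times, with hours after 2/3 hepatectomy and the array of each time across and a thick line between the early and later windows. Translation factors (0.34 and -0.30), proteasome subunits (0.26 and -0.46) and chaperones of the endoplasmic reticulum (0.44 and -0.36) differed between arrays 1 and 2 of 12 h.

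Growth regulators split. Of 33 growth factors, receptors and members of the insulin-like growth factor axis, 3 rose (9.09%) and 6 fell (18.2%), with a median of -0.01. Over all genes 7.78% rose and 8.54% fell, so the share that rose was near that of all genes. Inhbe, an inhibin beta chain made in liver, had 426 and 168 (12 h), 672 and 288 (18 h), against 24.4 and 27.0 (1 h), 41.3 and 32.7 (2 h), 126 and 28.4 (6 h), all later arrays above all early ones (2.69 ± 0.41, adjusted p = 0.00541). Lepr, the leptin receptor, averaged 160.3 ± 51.1 later and 70.4 ± 9.32 early (0.99 ± 0.14), with 1 of its 4 probe sets at -0.27. Igfals, which holds insulin-like growth factors in the circulation, averaged 158 ± 41.8 later and 677 ± 240.3 early (-1.93 ± 0.21). Vegfa, the endothelial growth factor, averaged 187 ± 20.7 later and 418 ± 124.8 early (-1.04 ± 0.14), and its other probe set gave only -0.19. Hgf, Met, Egfr and Igf1 did not pass the test, with differences of 0.16 ± 0.10, -0.15 ± 0.13, 0.37 ± 0.22 and -0.01 ± 0.17.

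Of 20 genes of p53 response and growth arrest, 4 fell (20%) and 2 rose (10%), with a median of -0.10, beside 8.54% and 7.78% of all genes. Gadd45a, a growth arrest gene induced by stress, had 67.1 and 87.8 (12 h), 28.5 and 17.7 (18 h), against 87.2 and 164.7 (1 h), 366 and 332 (2 h), 661 and 683 (6 h). It was highest at 6 h and its 1 h arrays overlapped the 12 h arrays, with a difference of -2.44 ± 0.17 against the window (adjusted p = 0.000727) and -3.52 ± 0.23 against 6 h alone (adjusted p = 0.00264). Trp53inp1, a p53 target, averaged 275 ± 36.8 later and 1464 ± 317 early, with no overlap (-2.32 ± 0.20, adjusted p = 0.000954). Cdkn1a, the p21 inhibitor, had 1060.2 and 864 (12 h), 544 and 639.6 (18 h), against 266 and 370.3 (1 h), 458 and 460.0 (2 h), 807 and 642 (6 h) and rose by 0.66 ± 0.13 (adjusted p = 0.0139). That call was lost without array 2 of 18 h (adjusted p = 0.0515), and its other probe set gave -0.15.

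Cell cycle genes showed little change by count. Of 47 genes of G1 cyclins, DNA replication and S phase 2 rose (4.26%) and 5 fell (10.6%), with a median of 0.02. Over all genes 7.78% rose and 8.54% fell, so the share that fell was near that of all genes. Of the 47, 12 were under 50 on all 10 arrays. Ccnd1, cyclin D1, averaged 251 ± 76.8 later and 352 ± 98.9 early and did not pass the test (-0.46 ± 0.24, adjusted p = 0.248). Tk1, thymidine kinase, averaged 46.4 ± 21.9 later and 158 ± 60.2 early (-1.48 ± 0.19, adjusted p = 0.0032) and Gmnn, geminin, 27.9 ± 14.1 later and 62.7 ± 10.3 early (-0.89 ± 0.15). Of 35 mitosis genes 0 rose and 0 fell by limma's test, with 0 and 1 at an unadjusted p under 0.05 and a median of -0.03, and 14 were under 50 on all 10 arrays. Top2a, topoisomerase of dividing cells, averaged 89.5 ± 5.96 later and 118 ± 33.8 early.

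Among metallothioneins and genes of oxidative stress 7 of 20 rose and 3 fell, with a median of 0.07. Mt2, which binds zinc, averaged 7941 ± 880.1 later and 4396 ± 1584 early (0.91 ± 0.16, adjusted p = 0.00808), with 6487 and 6371 at 6 h. Slc39a14, the zinc importer induced by interleukin 6, averaged 2995 ± 774 later and 1135 ± 653 early (1.5 ± 0.22, adjusted p = 0.00481). Its 4 probe sets ranged from 0.48 to 1.5. Gclc, the rate-limiting enzyme of glutathione synthesis, fell, with 385 ± 64.5 later and 1228 ± 529 early (-1.55 ± 0.12, adjusted p = 0.000805). Hmox1, heme oxygenase, rose against the whole early window, a call lost with array weights (0.40, adjusted p = 0.0521). It was highest, with 533 and 539.8 at 6 h, and its difference from 6 h alone was -0.55 ± 0.12 (adjusted p = 0.0535).

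Of 21 genes of the circadian clock and its output, 6 fell and 2 rose, with a median of -0.12. Bhlhe40 and Nfil3, repressors that are also stress responsive, averaged 307 ± 41.0 later and 1014 ± 391 early and 116 ± 29.8 later and 371 ± 149 early, with differences of -1.57 ± 0.18 and -1.47 ± 0.22. Arntl, the core activator, had 120.4 and 96.3 (12 h), 117 and 81.9 (18 h), against 252 and 255 (1 h), 223 and 236 (2 h), 91.0 and 92.3 (6 h). Its 6 h arrays were already at the later level, and it fell by 0.69 on the log2 scale against the whole early window, with its other probe set at 0.10 and the call lost without the second arrays of 2 and 12 h (adjusted p = 0.0537). Per1, Per2, Cry1, Dbp and Nr1d1 did not pass the test, with differences of -0.32 ± 0.20, -0.10 ± 0.09, -0.07 ± 0.16, -0.06 ± 0.09 and -0.29 ± 0.17. Nr1d1 was 1.28 lower than at 6 h alone (adjusted p = 0.0309). Time of day was not tested.

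Without the second arrays of 2 and 12 h, falls numbered 7 in the fasting list, 2 among liver transcription factors, 2 in the clock list and 2 among the G1 and S phase genes. Falls numbered 1 each in fatty acid oxidation, the oxidative stress list and innate signalling. Rises numbered 2 in fatty acid oxidation, 2 among cytosolic chaperones, 1 in the clock list, 0 among the G1 and S phase genes and 0 in the p53 list.

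Markers of cell types other than hepatocytes were followed beside these changes, and their part in the results was not tested. In bulk RNA, fewer cells of a type and less RNA per cell cannot be told apart. Of 16 markers of Kupffer cells and macrophages 2 rose (12.5%) and 3 fell (18.8%), beside 7.78% and 8.54% of all genes. Their summed intensity was 4240 to 5610 on the later arrays and 5250 to 6395 on the early ones. Clec4f, a lectin of resident Kupffer cells, averaged 201 ± 36.7 later and 429.9 ± 26.0 early (-1.05 ± 0.12) and Marco, a scavenger receptor, 364 ± 173 later and 95.9 ± 21.3 early (1.66 ± 0.16). The 13 neutrophil markers had 0 calls by limma's test (1 higher and 0 lower at an unadjusted p under 0.05), with sums of 1678 to 2132 on the later arrays and 1416 to 2490 on the early ones. None of the markers of these cell types was at or below 0 on all 10 arrays, except 1 of the list for pancreas, fat and muscle.

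Endothelial markers fell in 5 of 18 cases and rose in 1, with sums of 2831 to 3220 on the later arrays and 2942 to 4373 on the early ones. Lyve1, a receptor of sinusoidal and lymphatic endothelium, averaged 313 ± 66.4 later and 104.8 ± 16.1 early (1.43 ± 0.11), while Clec4g, a sinusoidal lectin, averaged 314 ± 126 later and 649 ± 173 early (-1.05 ± 0.17), with its other probe set at 0.19. Stellate cell and fibroblast markers rose in 1 and fell in 3 of 16 cases, lymphocyte markers in 1 and 1 of 16, red cell markers in 0 and 1 of 10 and bile duct and gallbladder markers in 1 and 0 of 9. For lymphocytes this was 6.25% each way, for red cells 10% lower and for bile duct 11.1% higher. These shares were near those of all genes, 7.78% higher and 8.54% lower. The lymphocyte marker that fell was Cd8a, with 4 of its 5 probe sets in the other direction. The red cell marker that fell was Slc4a1, with 2 of its 3 in the other direction. Stellate cell sums were 4121 to 4966 later and 4082 to 5504 early, and lymphocyte sums 2348 to 2573 later and 2324 to 2817 early. Red cell sums were 3044 to 3408 later and 2520 to 3685 early, and bile duct sums 931.7 to 1001 later and 769.8 to 933.5 early. Of markers of pancreas, fat and muscle, 1 rose and 2 fell of 13, with sums of 2665 to 4703 on the later and 3130 to 4219 on the early arrays. Cela1, 1 of the 2 that fell, averaged 193 ± 25.7 later and 643 ± 221 early, with no overlap (-1.60 ± 0.17, adjusted p = 0.00177). Fabp4, a fatty acid carrier of adipocytes and macrophages, was the member that rose. It averaged 1072 ± 533 later and 131 ± 26.1 early (2.76 ± 0.22, adjusted p = 0.000805). Its 4 probe sets ranged from 0.13 to 2.94. Hepatocyte markers fell in 2 of 13 cases and rose in 0 (5 and 0 at an unadjusted p under 0.05), with sums of 41970 to 61080 on the later and 51840 to 69440 on the early arrays. Without the second arrays of 2 and 12 h, 0 hepatocyte markers, 3 endothelial ones and 1 of pancreas, fat and muscle were lower, and 1 Kupffer cell marker was higher. After quantile normalization 5 hepatocyte and 5 Kupffer cell markers were lower.

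Several large changes fell outside these lists. Sult1e1, estrogen sulfotransferase, had 212 and 389 (12 h), 1199 and 893 (18 h), against -0.45 and 10.9 (1 h), 9.88 and 6.25 (2 h), 91.4 and 80.0 (6 h). All later arrays lay above all early ones (3.93 ± 0.22, adjusted p = 0.000531). Its 1 and 2 h arrays were near or below 0, so the size depends on the added constant, with 4.77 for 4 and 2.78 for 64. Cxcl13, a chemokine for B cells, averaged 594 ± 419 later and 67.1 ± 31.3 early (2.58 ± 0.31). Efcab9, known from sperm in the mouse, averaged 3496 ± 1051 later and 496 ± 396 early on its probe set (3.01 ± 0.24). Among the falls, Hao2, a peroxisomal hydroxyacid oxidase, averaged 256 ± 261 later and 1883 ± 837 early (-3.33 ± 0.26). Hsd3b3, a steroid dehydrogenase, averaged 75.6 ± 75.9 later and 685 ± 272 early (-3.33 ± 0.15), and its other probe set gave only -0.48. Coq8a, of coenzyme Q synthesis, averaged 45.0 ± 59.2 later and 669.6 ± 197 early (-3.63 ± 0.48). Its lowest later array was below 0, and the difference was -4.29 with a constant of 4 and -2.7 with 64. Keg1, Nrep, Apol7a and Hectd2os fell, with differences of -2.89 ± 0.23, -3.36 ± 0.31, -3.56 ± 0.27 and -3.22 ± 0.17, each without overlap. The other probe set of Nrep gave only -0.71.

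Some large log2 differences rest on probe sets near or below 0 on arrays of the other window and are given as values without a fold. Cep112 had 869 and 722 (12 h), 12928 and 1934 (18 h), against -555 and -449 (1 h), -391 and -541 (2 h), -392 and -371 (6 h) on a probe set ending in _s_at, and its 2 other probe sets went the other way, to -0.38. Mospd2 had 985 and 331 (12 h), 2076 and 1315 (18 h), against -130.0 and -201 (1 h), -93.3 and -81.3 (2 h), 136 and -53.1 (6 h), with 1 of its 2 other probe sets at -0.37. Atxn7l3 and Efhb averaged 281 ± 102 later and -12.2 ± 52.4 early and 403 ± 172 later and -13.6 ± 41.2 early. Ighmbp2 averaged 1262 ± 568 later and 79.9 ± 117 early on the probe set used, and its lowest other probe set gave 0.04. On the low side, Tmem171 had -388 and -171 (12 h), -414 and -369 (18 h), against 465 and 589 (1 h), 27.9 and 22.6 (2 h), 473 and 232 (6 h), Gm10575 averaged -77.1 ± 71.7 later and 114 ± 11.3 early, and Hsd3b2 averaged 5.68 ± 9.39 later and 281 ± 103 early. All of these genes had adjusted p under 0.05 with no overlap between the windows.

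Set side by side, 752 genes were higher (4.13%) and 999 lower (5.49%) at 12 h against 1, 2 and 6 h, and 1008 higher (5.54%) and 978 lower (5.38%) at 18 h. These comparisons share their early arrays. Lcn2 differed by 4.03 at 12 h and 4.37 at 18 h, Ncl by 1.00 and 1.37, and Got1 by -1.49 and -2.33, and each passed the test. G6pc was lower at both times (adjusted p = 0.00314 and 0.00854), with no size given for 12 h, where it was near or below 0. Only 6 genes were called at 12 h without the second arrays of 2 and 12 h, and 1547 at 18 h, and with array weights 277 and 1858, against 1751 and 1986 here. Leaving out 1 array gave 640 calls (array 2 of 12 h) to 1120 (array 1 of 1 h) at 12 h for the 6 arrays that moved the count most downwards, and 697 (array 2 of 18 h) to 1322 (array 2 of 1 h) at 18 h.

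Between the later times themselves, 18 h against 12 h, 2 genes were higher and 7 lower. Set against the early window, 3200001D21Rik differed by -0.92 at 12 h and 1.87 at 18 h, and Chd1 by 0.31 and -2.04. Without array 1 of 12 h the counts were 1057 and 239, and without array 2 of 12 h or either array of 2 h they were 0 and 0. Upp2, a uridine phosphorylase of liver, had 12.1 and 44.3 at 18 h, against 474 and 533 at 12 h, and 2436 and 2138 at 6 h, on a probe set whose neighbours in the gene reached 0.11 against the early window. Rnf125, a ubiquitin ligase, had 249.4 and 329 at 18 h and 1519.6 and 1339.6 at 12 h, where the 12 h arrays lay within the early range of 1004 to 1975. Pde4b, a phosphodiesterase of cyclic AMP, had 59.3 and 79.6 at 18 h and 226 and 293 at 12 h, with 2 of its 6 probe sets in the other direction against the early window, up to 0.08. For Chd1, a chromatin remodeller, the arrays had 12.5 and 19.3 at 18 h and 116 and 180.4 at 12 h. In Hsd3b3, with 17.7 and 8.22 at 18 h against 110.4 and 166 at 12 h, and in Upp2 no 12 h array reached the early range. All 8 of the calls shown in the plot of these genes were lost without either array of 2 h or array 2 of 12 h.

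**Figure D5:**
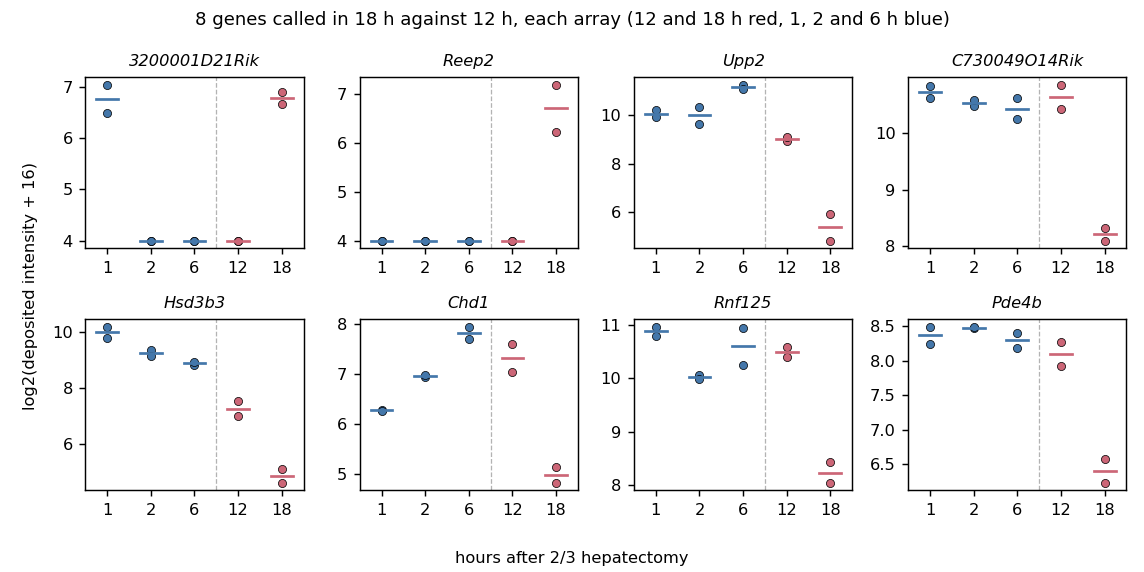
Log2(deposited intensity + 16) of 8 genes called in 18 h against 12 h, against hours after 2/3 hepatectomy, each point 1 array and each bar the mean of a time, with 12 and 18 h in red and 1, 2 and 6 h in blue. Upp2, C730049O14Rik, Hsd3b3, Chd1, Rnf125 and Pde4b were lower at 18 h than at 12 h, and 3200001D21Rik and Reep2 were higher.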

How the data were processed

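Total RNA of mouse liver was measured on 32 Affymetrix MG 430 2.0 arrays, of which 10 are compared here. Per the labels' protocols, each array held biotin-labelled cRNA from 6 µg of total RNA. The authors deposited a value table of linear intensity per probe set. No label or header names its software, background correction or normalization, so the scale could not be traced to the scanner values. Between 2.71 and 3.06% of values per array were below 0. These were set to 0, 16 was added and log2 was taken, with no further normalization.

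Of 45101 probe sets, 34958 had 1 gene symbol in the platform annotation, 932 had several and 9211 had none. The probe set with the highest mean over the 10 arrays stood for each of 18193 genes. One mean per time was fitted with limma 3.58.1 in R 4.3.3 (eBayes with an intensity trend), with Benjamini-Hochberg adjustment over all genes, and the contrasts were 12 and 18 h against 1, 2 and 6 h, against 6 h, each later time against the early window, and 18 h against 12 h. The fit was tested on simulated data. Genes were named by rule. From the first contrast came the 15 largest rises and 15 largest falls among called genes whose windows did not overlap and whose higher window mean was above the median of all values. From 18 h against 12 h came the 6 largest each way, and from the contrast with 6 h the 5 largest each way. Each list gave its 4 members of smallest p, and known genes of liver regeneration were added whatever their values. The named genes, members and lists were chosen with earlier results of these data known. Some genes are not analysed here. Alternatives were another constant, a filter on dim genes, the mean of probe sets, other probe sets, quantile normalization, other sets of arrays, array weights, a replicate block and each array left out.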

Additional observations from a re-analysis of the deposited data

Results flagged for a closer look

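Of the 9 genes called in 18 h against 12 h, 8 met the rule for named genes. For these the change against 1, 2 and 6 h differed between 18 and 12 h by limma's test of that difference, with adjusted p of 0.0109 to 0.0441. On the log2 scale, 18 h minus 12 h was -3.66 for Upp2, -2.43 for C730049O14Rik, -2.41 for Hsd3b3, -2.35 for Chd1, -2.25 for Rnf125 and -1.69 for Pde4b. It was 2.8 for 3200001D21Rik and 2.69 for Reep2, both of which were at or below 0 at 12 h, so these have no fold. All 8 calls were lost when either array of 2 h or array 2 of 12 h was left out. The causes were not tested.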

How the results depend on the processing

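Against 1, 2 and 6 h, counts of genes that rose and fell stayed within 1.5 times of 1416 and 1553 under most alternatives, except that 438 rose and 361 fell against 6 h alone, and 713 fell without the second arrays of 2 and 12 h. Leaving out 1 array gave 818 (without array 1 of 2 h) to 1718 (without array 2 of 12 h) rises and 953 (without array 2 of 2 h) to 1940 (without array 1 of 12 h) falls. A time left with 1 array was assumed to vary like the others. For 12 h against the early window, array weights gave 277 calls, dropping both second arrays 6, and leaving out 1 array 640 to 2402. For 18 h, leaving out 1 array gave 697 to 2799. Against 6 h, rises numbered 847 with all 32 arrays, 284 with the replicate block and 168 without both second arrays, and falls 660 after quantile normalization, 586, 237 and 99. Leaving out array 2 of 6 h left 2 rises and 4 falls, and the highest counts were 770 and 495. Between 18 and 12 h, rises numbered 1 with a constant of 64, 4 with a mean of at least 64, 67 with all 32 arrays, 0 with the 20 adult arrays, 0 with array weights, 1 with the replicate block and 0 without both second arrays. Falls numbered 1, 15, 68, 1, 0, 0 and 0 under the same settings, and 3 with the mean of probe sets. Leaving out 1 array gave 0 to 1057 rises and 0 to 239 falls, the highest without array 1 of 12 h. The sign turned for Angptl4 (-1.11), Cep112 (-0.03) and Mt1 (-0.14) without probe sets ending in _x_at or _s_at, for Arntl (0.14), Hmox1 (-0.55), Pdgfrb (0.16) and Socs3 (-0.25) against 6 h alone, and for Cd8a (0.06) and Hspa4 (-0.23) with the mean of probe sets. The cause was not tested. The differences between array 1 and array 2 of a time, over genes, correlated between times at -0.08 to 0.26. The highest was between 12 and 18 h. The replicate numbers were not taken to pair the arrays. With the block 1274 genes rose and 1427 fell.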
